A study of Caenorhabditis elegans with 4 samples.

Results

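Among the 3000 highest peaks of a ChIP-seq experiment on the Caenorhabditis elegans protein CEY-2, 547 had their summit in an intron of a coding gene on an autosome. These intron peaks were chosen by 2 criteria, their signal in the peak list called from the pooled replicates and their position. The pooled list held 25484 peaks, and the 3000 with the highest signal were kept, of which 2454 were autosomal. A summit counted as intronic when it lay inside a protein-coding gene but in no annotated exon, not within 500 bp upstream of a coding start and not within 500 bp of the start of an ncRNA, lincRNA or antisense RNA gene. Because the pooled signal chose the peaks, its values are descriptions and no test was made on them.

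The worms were whole hermaphrodites at the L4 larval stage, of the strain OP358 with the genotype unc-119(tm4063) III; wgIs358. The integrated transgene wgIs358 expresses CEY-2 with a GFP-FLAG tag at its C terminus, and chromatin was precipitated with an antibody against GFP. The genotype lists no deletion of the endogenous cey-2 gene, all libraries came from this 1 strain, and age beyond the larval stage is given as unknown. There was 1 group with 3 biological replicates in 4 libraries, since replicate 2 had 2 technical libraries that were merged before its peaks were called. The replicates differ in number only; the labels do not say how the cultures were kept apart. No worms without the tag were analysed here, and the lists hold no read counts, so depth and the counting error of a single peak are unknown. Strong occupancy in few cells and weak occupancy in many cannot be told apart in whole worms, and no expression values were at hand to check stage or tissue against markers.

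CEY-2 is a member of the Y-box protein family, whose cold shock domain binds single-stranded nucleic acids. The family was named after vertebrate proteins recovered with a promoter element that holds the CCAAT motif, and its worm members are best known as proteins that bind messenger RNA, with CEY-2 found mainly in the germ line. Introns of worm genes are mostly short, and the long ones can hold enhancers and alternative promoters. A peak in an intron marks DNA that came down with the tagged protein there; it does not show which gene, if any, responds.

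Sequences of 10 of the 11 highest intron peaks are shown first, because the sequence around their summits carries the words described later. Each is the 151 bp centred on the summit, in build ce11 (WBcel235), read 5′ to 3′ on the plus strand of the genome, with the sequence from RefSeq. Capitals mark copies, on either strand, of 4 words that were more frequent at summits than in flanks: the GA repeat GAGAGA, which reads TCTCTC on the opposite strand, the palindromic E-box CACGTG, the GATA site TGATAA, whose reverse complement is TTATCA, and the CA repeat CACACA, whose reverse complement is TGTGTG. All other bases are in lower case.
pkg-2 rank 19 (chrIV:8527693-8527843, plus strand): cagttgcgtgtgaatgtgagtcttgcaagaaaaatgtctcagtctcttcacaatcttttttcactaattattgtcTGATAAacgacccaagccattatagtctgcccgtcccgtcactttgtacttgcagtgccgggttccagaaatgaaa
pkg-2 rank 29 (chrIV:8530675-8530825, plus strand): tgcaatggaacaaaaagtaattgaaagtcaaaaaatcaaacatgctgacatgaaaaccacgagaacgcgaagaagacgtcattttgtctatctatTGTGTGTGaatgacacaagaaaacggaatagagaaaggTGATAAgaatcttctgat
pqn-41 rank 30 (chrIII:1925175-1925325, plus strand): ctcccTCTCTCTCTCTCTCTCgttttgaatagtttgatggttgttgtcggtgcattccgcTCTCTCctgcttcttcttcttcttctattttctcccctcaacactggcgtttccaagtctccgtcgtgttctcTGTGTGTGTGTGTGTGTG
egl-27 rank 32 (chrII:6842793-6842943, plus strand): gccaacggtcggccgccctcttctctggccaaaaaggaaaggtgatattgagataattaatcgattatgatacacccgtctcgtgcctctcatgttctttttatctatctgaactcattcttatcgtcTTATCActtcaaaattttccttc
D2023.3 rank 35 (chrV:11802555-11802705, plus strand): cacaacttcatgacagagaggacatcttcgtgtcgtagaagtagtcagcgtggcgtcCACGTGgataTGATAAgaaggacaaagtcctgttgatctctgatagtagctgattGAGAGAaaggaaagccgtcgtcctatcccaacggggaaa
Y43F8B.2 rank 39 (chrV:19529313-19529463, plus strand): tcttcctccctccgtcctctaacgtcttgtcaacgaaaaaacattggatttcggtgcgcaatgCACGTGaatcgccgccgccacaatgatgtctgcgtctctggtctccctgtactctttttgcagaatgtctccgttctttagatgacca
pgph-2 rank 41 (chrV:5768319-5768469, plus strand): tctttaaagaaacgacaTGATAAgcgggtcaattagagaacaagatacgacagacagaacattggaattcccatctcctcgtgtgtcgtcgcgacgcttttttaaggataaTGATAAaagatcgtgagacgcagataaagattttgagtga
pkg-2 rank 44 (chrIV:8535089-8535239, plus strand): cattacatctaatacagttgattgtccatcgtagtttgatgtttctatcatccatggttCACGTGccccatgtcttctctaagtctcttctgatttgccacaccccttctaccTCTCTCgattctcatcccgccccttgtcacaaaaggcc
fkh-7 rank 48 (chrIV:5591283-5591433, plus strand): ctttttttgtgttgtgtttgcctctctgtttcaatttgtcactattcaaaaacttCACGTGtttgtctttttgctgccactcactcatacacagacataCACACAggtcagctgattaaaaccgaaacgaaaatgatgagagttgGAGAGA
pdhk-2 rank 55 (chrIII:8739277-8739427, plus strand): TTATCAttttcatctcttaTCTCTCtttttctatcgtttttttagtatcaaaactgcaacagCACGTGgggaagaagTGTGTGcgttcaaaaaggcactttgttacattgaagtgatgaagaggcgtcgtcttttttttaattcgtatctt

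In the windows shown, the peak in pqn-41 had long runs of both repeats, the peak in pdhk-2 held all 4 words, and the peaks in D2023.3 and fkh-7 held 3 each. The highest peak, in pkg-2, held the GATA site alone, as did those in egl-27 and pgph-2. The peak in Y43F8B.2 held the E-box alone. The words are letters found in a window and are not shown to be sites that a factor binds.

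The highest intron peak lay in pkg-2 (WBGene00015650), which encodes a cGMP-dependent protein kinase, at chrIV:8527695-8527875 in ce11, in intron 5 of 11. Its pooled signal, the caller's own value, was 157, and it ranked 19 in the pooled list. It ranked 22 in replicate 1, 22 in replicate 2 and 28 in replicate 3, with signals of 58.5, 74.0 and 28.5 in those lists. The 3 ranks lay close together; signals from different lists are on different scales and only ranks within each list were read.

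A second peak of pkg-2, at chrIV:8530555-8530944 in the same intron, ranked 29 in the pooled list with a signal of 106, and 26, 43 and 47 in replicates 1, 2 and 3. The third pkg-2 peak shown, at chrIV:8534969-8535358 in intron 6, ranked 44 with a signal of 89.9. It ranked 743 in replicate 1, 51 in replicate 2 and 29 in replicate 3, so replicate 1 placed it much lower than the others did. The peak in egl-27, a gene for a protein related to the MTA subunits of chromatin complexes, ranked 32 with a signal of 101, at chrII:6842673-6843062 in intron 10 of 12. Its ranks in the replicates were 32, 27 and 36, again close together, and a snoRNA gene starts near its summit.

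Other high peaks differed more between replicates. The peak in pqn-41, which encodes a protein rich in glutamine and asparagine, ranked 30 with a signal of 104 at chrIII:1925055-1925444, and 66, 25 and 625 in replicates 1, 2 and 3. The peak in D2023.3, at chrV:11802435-11802824, had a signal of 96.5 and ranks of 54, 65 and 23. The peak in Y43F8B.2, at chrV:19529193-19529582, had a signal of 93.4 and ranks of 68, 33 and 44. In these last 2 genes all 3 replicates placed the peak in their top 100, whereas for pqn-41 replicate 3 did not.

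The peak in pgph-2, a homologue of phosphoglycolate phosphatase genes, had a signal of 91.3 and ranks of 59, 41 and 134. That in fkh-7, a forkhead transcription factor gene, lay in its 16465 bp first intron with a signal of 86.2 and ranks of 37, 93 and 152; piRNA genes start near it. The peak in the Iroquois homeobox gene irx-1 was 104 bp wide, had a signal of 81.9 and ranked 30 and 71 in replicates 1 and 2 but 1144 in replicate 3. The peak in pdhk-2, a pyruvate dehydrogenase kinase gene, had a signal of 79.7 and ranks of 78, 90 and 392. For these 4 genes replicate 3 gave the lowest placing.

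The order was turned round in zfp-1, a homologue of the mammalian leukaemia fusion partner AF10, whose highest peak had a signal of 75.0 and ranked 301, 172 and 25. Next came blmp-1, the Blimp-1 transcription factor gene, with a signal of 71.1 and ranks of 53, 283 and 174. E01G4.3 followed with 69.4 and ranks of 93, 61 and 440, near a miRNA start. Y111B2A.12 had 66.5 with ranks of 266, 58 and 1285. The TBC-domain gene tbc-6 had 64.7 with ranks of 65, 151 and 2602. The bZIP transcription factor gene zip-2 had 62.8 with ranks of 1077, 45 and 3465. For both tbc-6 and zip-2 replicate 3 gave the lowest placing; replicates 1 and 2 were close for tbc-6 and far apart for zip-2. The 20 highest were completed by further peaks in pkg-2 (62.5), pqn-41 (62.3) and Y43F8B.2 (61.9).

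**Figure D1:**
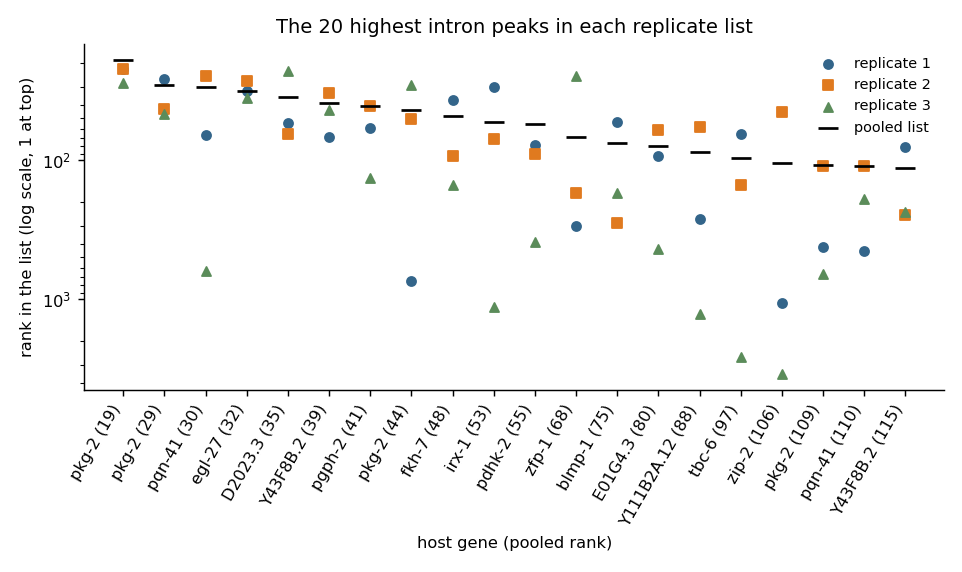
Rank of the 20 highest intron peaks (x axis, host gene with pooled rank) in the peak list of each replicate (blue circles, orange squares, green triangles) and in the pooled list (black bars), on a log scale with rank 1 at the top. The highest pkg-2 peak ranks 22, 22 and 28, while the zip-2 peak spreads from 45 in replicate 2 to 3465 in replicate 3.

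At the other end of the set, the 5 peaks just inside the limit of 3000 lay in clec-40, D1081.10, par-1, C34B4.4 and hmr-1, each with a signal of 19.3. The next intron peaks below it lay in calf-1, B0511.11 and Y53F4B.39, each at 19.2, and in fkh-7 and T07E3.4, each at 19.1. The limit therefore fell in a continuous run of values. Over all 547, signals ran from 19.3 to 157 with a median of 25.8, against medians of 25.3 in 686 upstream peaks and 26.7 in 569 distal intergenic peaks. There were 16 intron peaks among the 100 highest of all peaks and 111 among the 611 highest. All but 2 of the 547 were 390 bp wide.

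The 547 peaks lay in 395 host genes, which is 2.42% of the 16354 autosomal coding genes that have intron bases where such a peak could lie. A single peak was found in 301 hosts and 2 peaks in 57. The 37 hosts with 3 or more peaks held 132 of them, or 24.1%. In 3 cases the summit lay inside more than 1 coding gene.

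The genes with most intron peaks were pkg-2 and pqn-41, with 6 each. The pkg-2 summits spanned 7396 bp with signals from 157 down to 32.4. The pqn-41 summits spanned 7236 bp with signals from 104 to 19.5. A pair of them lay 200 bp apart and matched the same peak in every replicate list, so they are not separate there. In zfp-1 there were 5 summits over 7304 bp, with signals of 75.0, 55.7, 40.1, 32.1 and 28.2. The second of these ranked 281, 146 and 179 in the replicates, closer together than the first. Those at 40.1 and 28.2 matched a single peak in replicates 1 and 2, and the one at 40.1 had no match in replicate 3.

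The MAP kinase phosphatase gene vhp-1 also held 5 summits, spread over 14607 bp and lower, with signals from 36.7 to 21.0. Its highest was not matched in replicate 1 and ranked 504 and 510 in replicates 2 and 3. A group of 11 genes held 4 each, among them egl-27 (101 to 19.5), Y43F8B.2 (93.4 to 27.3), fkh-7 (86.2 to 27.8), the nuclear receptor gene nhr-19 (61.1 to 28.3), the kinase gene mnk-1 (54.5 to 23.3) and cwf-19L2 (52.4 to 19.7). In nhr-19 all 4 summits lay in the second intron, within 3308 bp, and the highest ranked 77 and 83 in replicates 2 and 3 but had no match in replicate 1. In mnk-1, related to the kinases that MAP kinases activate, 3 of the 4 lay in intron 3. The 2 highest there ranked 1607, 154 and 191 and 184, 560 and 183 in replicates 1, 2 and 3.

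**Figure D2:**
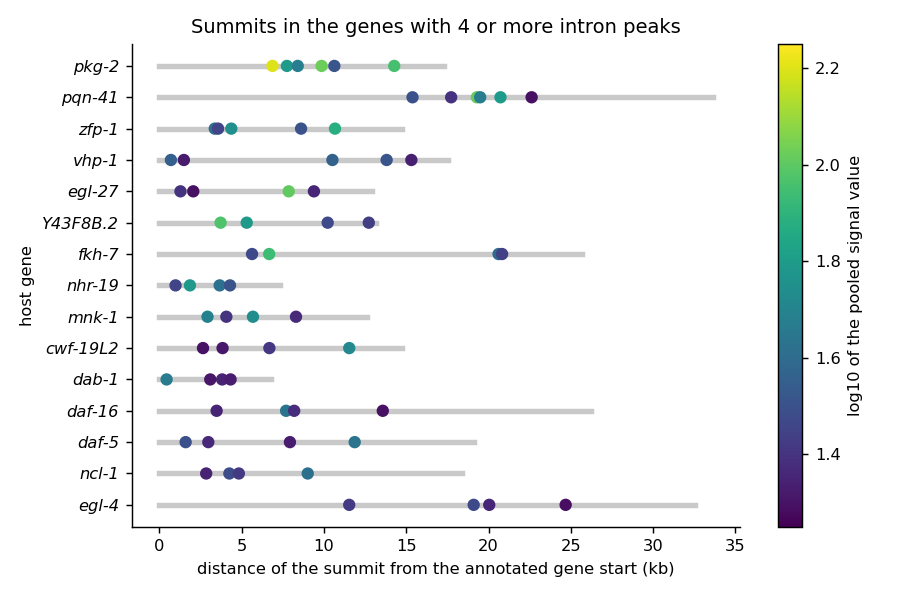
Position of intron summits (points) along the 15 genes with 4 or more of them, as distance in kb from the annotated gene start, with the whole gene as a grey bar. Colour gives log10 of the pooled signal; the brightest point is the pkg-2 peak at 157, and the summits of pkg-2 and nhr-19 sit within 7396 and 3308 bp.

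Transcription factor genes other than nuclear receptors and homeobox genes held 17 hosts among 129 genes on the list, or 13.2%, against 2.42% over all genes. They had 79.3 intron peaks per Mb of eligible intron, compared with 21.0 over all autosomal coding genes, and 28 peaks in all. On this list, fkh-7, blmp-1 and zip-2 were followed by the bZIP gene atf-7 (signal 59.7), eor-1 (45.1), zip-3 (44.2) and daf-16 (43.1). The last, the FOXO factor of insulin signalling, held 4 peaks. The transcription factor genes daf-19 (53.3) and jun-1 (51.3) were hosts that the list left out, so its counts are incomplete. The bZIP gene skn-1, an Nrf-type regulator of stress responses, held 1 at 29.0 and hlh-30, the TFEB homologue, held 2 with the higher at 31.2. The lists of genes were drawn up by gene symbol with earlier results of these data known, so their counts describe the hosts and support nothing further.

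Kinase and signalling genes held 12 hosts among 100 on the list, with 26 peaks and 53.2 per Mb. Beside pkg-2 and mnk-1 they included the protein kinase C gene tpa-1 (56.7), the Smad gene daf-14 (46.5), the G protein alpha subunit gene egl-30 (41.9), the CaM kinase II gene unc-43 (38.2), the insulin receptor gene daf-2 (36.2) and the protein kinase A gene kin-1 (35.4). The second cGMP-dependent protein kinase gene, egl-4, held 4 peaks, but its highest was 29.6. Kinase genes such as pdhk-2 (79.7) and cdk-5 (50.4) were hosts that this list left out, so its counts are incomplete. Chromatin regulators held 4 hosts among 82, egl-27, zfp-1, let-526 and nurf-1, which carried 15 peaks, or 67.4 per Mb. In let-526, an ARID-domain subunit gene of the SWI/SNF complex, the highest of 3 peaks had a signal of 50.7 and ranked 324, 284 and 181 in the replicates. Its second, at 38.0, ranked 39 in replicate 3 but 1124 and 27272 in replicates 2 and 1. The 3 peaks of nurf-1, the gene for a large NURF subunit, reached only 22.0.

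Nuclear hormone receptor genes held 8 hosts among 247 (3.24%, 33.2 per Mb). After nhr-19 the highest were nhr-31 (43.2) and nhr-49 (37.6), a regulator of fat metabolism. Of the 66 homeobox genes listed, unc-62 alone was a host (1.52%, 5.70 per Mb), with a signal of 21.0. The gene irx-1 is a homeobox gene with 1 peak that the list left out. The homeobox count and density are therefore incomplete and are not ranked against other lists. Listed genes of nerve and muscle had densities below the 21.0 per Mb over all autosomal coding genes. Hosts such as unc-14 (24.4) and acc-1 (19.4) were left out of the nerve lists, so those counts and densities are incomplete too. Median eligible intron bases were 2487 in ion channel, 1219 in synapse and axon, and 2343 in muscle and adhesion genes. Over all genes with eligible intron bases the median was 681. Ion channel genes of excitable cells had 4 hosts among 159 (2.52%) and 8.40 peaks per Mb, the highest in the potassium channel gene twk-5 (45.6). Synapse and axon genes had 5 among 183 (2.73%) and 7.41 per Mb, the highest in rig-6 (28.7). Both host shares were near the 2.42% over all genes. Muscle and adhesion genes had 3 among 56 (5.36%) and 14.2 per Mb, the highest in pat-12 (37.2).

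Genes of RNA metabolism, the pathway in which Y-box proteins are best known, held few hosts, at shares and densities not below those over all genes (2.42% and 21.0 per Mb). Germline RNA regulators had 2 hosts among 58 (3.45%, 32.4 per Mb), larp-1 (40.2) and atx-2 (33.5), and splicing factors had 3 among 60 (5.00%, 23.0 per Mb), asd-2 (25.9), prp-39 (23.5) and rbm-34 (20.6). Translation factors had 1 among 40 (2.50%, 33.3 per Mb), eif-2Bdelta with a signal of 25.4. No host was found among 69 cytosolic ribosomal protein genes, whose median of eligible intron bases was only 105, or among 59 nuclear genes of oxidative phosphorylation, with a median of 407. The 2 collagen hosts among 125 genes were col-159 (35.2) and col-109 (28.0). The ceramide synthase gene hyl-1, whose peaks lie close to those of pkg-2, held 2 peaks at 25.9 and 20.4.

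Hosts had more intron sequence than coding genes at large. Their median of eligible intron bases was 3632, against 681 over all such genes. The share of genes that were hosts rose from 0.318% of those with under 500 eligible bases to 1.52%, 5.54%, 9.80% and then 21.1% of those with 10000 or more. Per Mb of eligible intron the density went from 14.1 to 15.8, 23.4, 22.6 and 24.3 over the same 5 classes, a far narrower spread than that of the shares.

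Density also differed with the length of the single intron. Introns of 3000 bp or more held 224 intron peaks, 41.0% of them on 18.8% of the eligible bases, or 45.6 per Mb. The density was 20.4 per Mb in introns of 1000 bp to under 3000 bp, 13.7 in those of 250 bp to under 1000 bp; the shorter ones held 41 peaks on the remaining bases. The median length of the introns that held a summit was 2013 bp, with a range from 32 to 20948 bp, whereas the median eligible base lay in an intron of 914 bp.

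**Figure D3:**
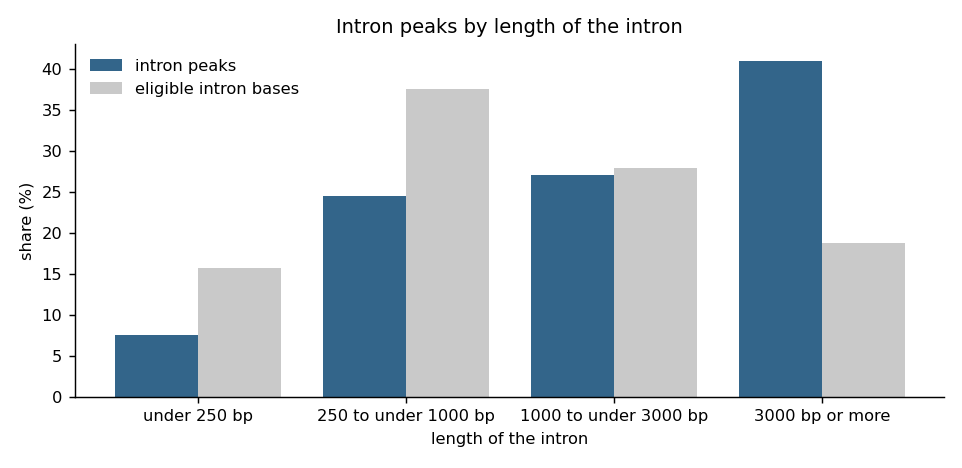
Share in percent of the 547 intron peaks (blue) and of the eligible intron bases of autosomal coding genes (grey) by length of the intron. Introns of 3000 bp or more hold 41.0% of the peaks and 18.8% of the bases.

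First introns, taken as gaps in the union of all exons of a gene, held 202 of the peaks, or 36.9% (exact 95% interval 32.9 to 41.1), and 22.7% of the bases. When the first intron of any annotated transcript counted, the share was 56.3% of peaks and 32.8% of bases. Summits lay nearer to the start of the host gene than to its end in 358 cases (65.4%). The matching share of eligible bases was not computed, so no lean of the peaks is read from this value. The median distance from the gene start was 2624 bp, and 58 summits lay within 500 bp downstream of it. A start of some annotated coding transcript lay within 500 bp of 155 summits (28.3%), compared with 19.4% of the eligible bases. Small RNA genes or pseudogenes started within 500 bp of 49 summits (8.96%, exact 95% interval 6.70 to 11.7), compared with 5.73% of the eligible bases, with piRNA genes at 26, snoRNA genes at 10 and miRNA genes at 5; these biotypes were not part of the selection. Intervals here and elsewhere cover counting error only, and peaks in 1 gene are not independent.

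Intron positions held fewer of the peaks than of the bases. Intron peaks made up 22.3% of the autosomal peaks (20.7 to 24.0), while the positions where they could lie made up 31.0% of autosomal bases, a ratio of 0.718. For upstream peaks the ratio was 2.85, for peaks at noncoding RNA starts 1.98 and for distal intergenic peaks 1.16. Peaks in exons or gene ends had the lowest ratio, 0.501. Per Mb of eligible intron, chromosome III held 26.5 intron peaks and chromosome II 26.0, followed by IV with 23.1, V with 17.3 and I with 15.5. The numbers behind these values were 131, 113, 121, 95 and 87. No test was made of these shares, because position and signal chose the peaks.

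Sequence was not used in the choice, and 4 of 15 words searched on both strands were more frequent within 100 bp of the summit than in a window of the same 201 bp centred 500 bp to the right. The GATA site was in 238 summit windows (43.5%) and 97 flanks (17.7%), with an adjusted p of 9.86e-19. The GA repeat was in 33.3% and 12.1% (8.46e-16). The E-box CACGTG was in 12.4% and 3.66% (3.36e-07), and the CA repeat in 20.8% and 11.2% (2.84e-05). These are two-sided exact McNemar tests on the 547 pairs of windows, adjusted by Benjamini-Hochberg over the 15 words. In 51256 windows of the same width laid over eligible introns, the shares were 16.4% for the GATA site, 8.18% for the GA repeat, 3.08% for the E-box and 7.48% for the CA repeat, each below that of the flanks. None of the 4 words contains another.

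Against the other direction, the splice acceptor word TTTCAG was in 17.0% of summit windows and 34.2% of flanks (adjusted p = 7.84e-10, exact McNemar test). With flanks that touch no exon the difference was -13.6 percentage points (adjusted p = 9.27e-06, exact McNemar test). The lower share was not particular to intron peaks. In upstream peaks it was 21.3% at summits and 42.0% in flanks (adjusted p = 3.29e-15, exact McNemar test). In distal intergenic peaks it was 19.3% and 30.6% (adjusted p = 7.43e-05, exact McNemar test). The Y-box word CCAAT was in 29.8% of summit windows and 37.5% of flanks (adjusted p = 0.0213, exact McNemar test), but with the flank 1000 bp away the difference was 0.731 percentage points in the opposite direction (adjusted p = 0.968). For the other words the tests did not pass: the E-box CAGCTG, the forkhead word GTAAACA, the nuclear receptor word TGACCT, the AP-1 word TGACTCA, the CRE word TGACGTC, the GC box GGGCGG, the E2F word GCGCGAA, the TATA word TATAAA and the T run TTTTTTT had adjusted p from 0.203 to 1.00 in the exact McNemar test. The forkhead word, for one, was in 5.12% of summit windows and 3.11% of flanks.

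The 4 words that were more frequent at summits were also counted together in each summit window. None was found in 144 windows, 1 in 243, 2 in 125, 3 in 31 and all 4 in 4. Matching counts for flanks were not computed, and the 4 words were picked in these same windows. Nothing further is read from these counts. The GA repeat and the GATA site, the most frequent of these words with 182 and 238 windows, were together in 70 windows. The E-box stood with the GATA site in 35. Joint counts to be had from the single shares alone were not computed, so no link between words is read. In bins of 100 bp, the GATA site was in 27.4% of the bins just left of the summit and 25.2% of those just right of it, and in 10.2% at 200 to 300 bp on either side.

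**Figure D4:**
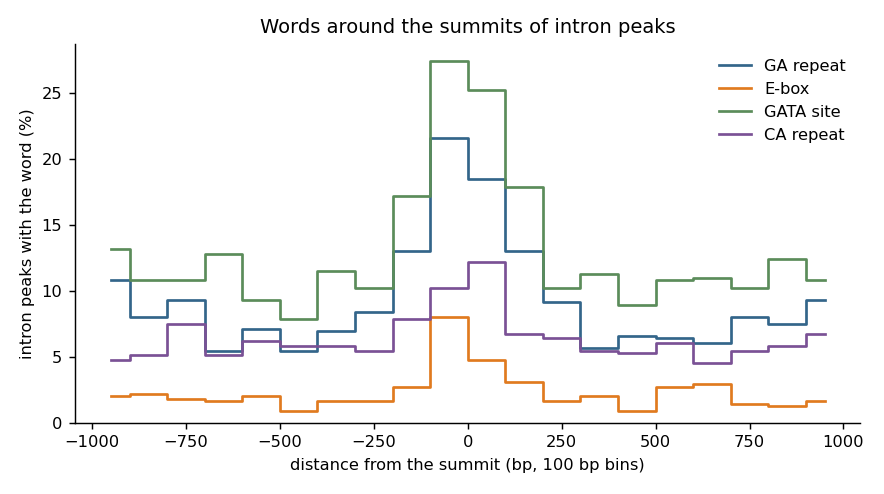
Share in percent of the 547 intron peaks with each word in bins of 100 bp, by distance in bp from the summit, for the GA repeat (blue), E-box (orange), GATA site (green) and CA repeat (purple). Each line is highest within 100 bp of the summit; the GATA site reaches 27.4% and the E-box 8.04%.

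The 4 words had lower shares in lower bands of pooled rank. In peaks that ranked 1 to 611, 612 to 1500 and 1501 to 3000, the GA repeat was in 50.5%, 34.9% and 24.9%. The E-box was in 20.7%, 12.0% and 9.20% of the same 3 groups and the CA repeat in 31.5%, 22.3% and 15.3%. For the GATA site the shares were 50.5%, 47.4% and 37.9%. The exact 95% intervals of neighbouring groups overlapped for each of the 4 words, and the decline was not tested. For the GA repeat they were 40.8 to 60.1, 27.8 to 42.4 and 19.8 to 30.6. In first and later introns, the E-box was in 12.4% and 12.5%, the CA repeat in 45 of 202 and 69 of 345 windows, the GA repeat in 29.2% and 35.7% of them, and the GATA site in 47.0% and 41.4%, with no test made. GC content had a median of 37.3% at summits and 35.3% in flanks, and 33.3% over eligible introns. Windows soft-masked as repeats over most of their length made up 10.1% of the summit windows and 46.7% of the eligible intron windows. The part that base composition and masking have in the word shares was not tested, except that all 4 words passed the exact McNemar test when such masked windows were left out, an alternative added after seeing the data.

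In each replicate's own 3000 highest peaks the same rule found 604, 588 and 623 intron peaks in replicates 1, 2 and 3. The GATA site was in 31.8%, 37.4% and 30.7% of their summit windows, against 17.9%, 20.2% and 16.5% of flanks, and the GA repeat in 21.7%, 32.1% and 21.7%, against 13.2%, 12.4% and 12.8%. Both passed the exact McNemar test in every replicate, with a largest adjusted p of 0.00117. The E-box was in 8.94%, 12.2% and 7.70% and missed the threshold of the exact test in replicate 3 (adjusted p = 0.102). The CA repeat passed the exact test in replicate 2 alone (15.1%, 18.4% and 14.3%; adjusted p = 0.184, 0.00201 and 0.222). The T run, which did not pass in the pooled list, was more frequent at summits than in flanks in replicate 1 (42.2% against 34.1%, adjusted p = 0.0113, exact McNemar test). The same held in replicate 3 (47.8% against 37.4%, adjusted p = 0.000353, exact McNemar test). Over eligible intron windows the T run was in 48.3%, above the summit share in both replicates. The GC box passed the exact test in replicate 3 alone (6.74% against 2.89%, adjusted p = 0.00552). Replicate 2 had the highest summit share of the GATA site, the GA repeat, the E-box and the CA repeat. The replicates also entered the pooled list, so these are not independent of it.

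The 4 words were also more frequent at summits than in flanks in upstream and in distal intergenic peaks, with a largest adjusted p of 0.000162 in the exact McNemar test. In 30 comparisons of intron peaks with these classes by two-sided Fisher's exact test, 0 passed after adjustment, with a lowest adjusted p of 0.192, and 3 had an unadjusted p under 0.05. These were the E-box, in 12.4% of intron and 8.31% of upstream peaks, the GATA site, in 43.5% and 36.9%, and the GA repeat, in 33.3% of intron and 40.4% of distal intergenic peaks. Missing the threshold does not show that the classes are alike.

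**Figure D5:**
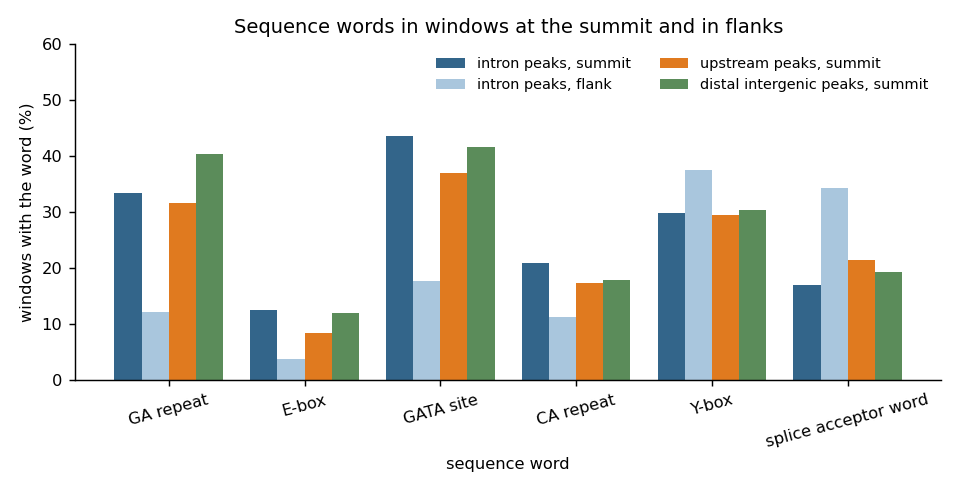
Share in percent of 201 bp windows that hold each word, at summits of intron peaks (dark blue), in their flanks (light blue), and at summits of upstream (orange) and distal intergenic peaks (green). For the GATA site the bars are 43.5%, 17.7%, 36.9% and 41.5%; for the splice acceptor word the flank is highest, at 34.2%.

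A summit within 200 bp was found in the full lists of all 3 replicates for 318 intron peaks, or 58.1% (exact 95% interval 53.9 to 62.3), against 56.4% over all 3000 peaks. The full lists hold background regions too, so a match is a weak requirement. Within the top 3000 of all 3 replicates the number was 86, or 15.7% (12.8 to 19.0), against 16.1% over all 3000. The authors' thresholded list held 111 of the intron peaks, 20.3%, against 20.4%. That list is the 611 highest pooled peaks, so being on it restates the pooled signal that chose the peaks. All 3 shares were near the background, and nothing is read from them about introns.

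Replicate 2 recovered most. Its full list held 502 of the 547 (91.8%), that of replicate 1 held 477 (87.2%) and that of replicate 3, which is shorter, 400 (73.1%). Over all 3000 peaks these shares were 92.4%, 84.8% and 73.5%. In the top 3000 of each, in the same order, the numbers were 338, 269 and 226 (61.8%, 49.2% and 41.3%). Here the shares over all 3000 peaks were 62.0%, 46.8% and 43.0%, so the order of the lists was not particular to introns. There were 69 intron peaks in the top 3000 of no single replicate. No matching number over all 3000 peaks was computed for this count or for the rank bands that follow. Neither is read as particular to introns. Pooled rank and replicate lists come from the same alignments, so recurrence by rank is a description of the lists and no separate support: 103 of the 111 peaks that ranked 1 to 611 were found in all 3 full lists (92.8%), as were 108 of 175 from 612 to 1500 (61.7%) and 107 of 261 from 1501 to 3000 (41.0%). Ranks of the intron peaks in 2 replicates were weakly related, with Spearman's rho of 0.186 between replicates 1 and 2 over 434 peaks, 0.210 between 1 and 3 over 344 and 0.286 between 2 and 3 over 372. These rho values are across peaks of lists that share a control, and describe them only. The pooled signal that chose these peaks came from the same replicates, and rho over all 3000 peaks was not computed. No level of agreement between replicates at introns is read from these values.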

How the data were processed

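Peak lists in build ce11 were used, 5 in all: 1 for each of 3 replicates, 1 called on the pooled replicates and 1 thresholded by irreproducible discovery rate. Per the file headers, the pooled list came from 3 replicate alignments and 1 control alignment. The caller and aligner, with their versions, were not given in those headers or in the labels. The deposited signal value per peak is the caller's own and was used only to rank within 1 list. The deposited −log10 q-value reaches a ceiling of 3.12, shared by 117 of the intron peaks, and was not used to rank. The summit offset was added to the deposited start to place each summit. Depth is unknown.

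Genes came from Ensembl release 115 and bases from the RefSeq WBcel235 sequence. Eligible bases are positions that would pass the rule. Exact McNemar and Fisher tests were two-sided, with Benjamini-Hochberg adjustment and a threshold of 0.05, in Python 3.11.15 with scipy 1.17.1, tested on simulated data. Intervals are Clopper-Pearson at 95%.

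The peaks, the 15 words and the 14 gene lists were chosen with earlier results of these data known. Named genes are hosts of the 20 highest peaks, hosts with most peaks, the highest host of each list, and pkg-2, mnk-1, hyl-1, zfp-1, let-526 and egl-27. Other hosts, whether on a list or left out of one, were named after their values were seen. Alternatives varied the rank limit, start distance, annotation, matching distance, windows, flanks and replicates; 2 were added after seeing the data.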

Additional observations from a re-analysis of the deposited data

How the results depend on the processing

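The count of 547 intron peaks follows from the rank limit, and was 183 in the top 1000 and 948 in the top 5000. In those sets, the share with a summit in all 3 full replicate lists was 82.5% and 41.0%, the share on the thresholded list 60.7% and 11.7%, and the number of hosts with 3 or more peaks 8 and 65. With summits matched within 100 or 400 bp in place of 200 bp, the share in all 3 full lists was 37.1% and 70.0%, and that in the top 3000 of all 3 was 11.3% and 19.6%. Leaving out each replicate in turn gave 62.9% to 79.3% for the first share and 21.2% to 29.8% for the second, since fewer lists had to match. It gave 19 to 25 hosts with 3 or more peaks, since only peaks matched in both remaining lists were kept. The first-intron share was 32.1% in the lists of replicates 1 and 3 alone, and 56.3% with any transcript's first intron, an alternative added after seeing the data. Of the 30 comparisons of words between classes, 1 passed in each of 4 settings: in the top 5000 (GA repeat, 27.2% of intron and 34.8% of distal intergenic peaks, adjusted p = 0.0135, Fisher's exact test), with windows of 150 bp each side, with exclusion within 1000 bp of starts, and in the list of replicate 2 alone. The cause was not tested. The GA repeat and GATA site passed under all 18 alternatives, and the splice acceptor word in all but the list of replicate 1 alone (adjusted p = 0.177, exact McNemar test). The T run and the forkhead word, which did not pass, did so in the top 5000 (adjusted p = 0.00344 and 0.0284, exact McNemar test). The lower share of CCAAT at summits missed the threshold in 8 alternatives and turned to 0.731 percentage points higher with the flank 1000 bp away. No paired analysis was possible because there was 1 group. Without read counts, the error of single peaks could not be given.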
